A study of Mus musculus with 4 samples.

Results

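Major histocompatibility complex class II presentation was followed through 8 genes in the mouse ventral prostate: H2-Aa, H2-Ab1, H2-Eb1, Cd74, H2-DMa, H2-DMb1, Ciita and Ctss. They were chosen by name for their role in the pathway, not for a measured value, and make up 8 of the 17896 genes in the deposited tables. All 8 were listed in each of the 4 libraries.

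The series comprises ventral prostates of C57BL6j wild-type mice from an experiment with implanted hormone pellets. There were 2 animals coded te2 and 2 sham animals, harvested 2 weeks after implantation. The labels do not spell out the code te2. Each library is 1 animal, whose paired lobes were pooled in 1 tube, dissociated in the cold with a Bacillus licheniformis protease and loaded on a 10x 3′ v3.1 droplet device, which tags each captured transcript with a unique molecular identifier (UMI). The tables held 3078 and 2856 cells in the te2 libraries and 2250 and 3061 in the sham libraries. Of these, 2324 and 2112 te2 cells and 1638 and 2017 sham cells were kept (at least 500 UMIs, at most 20% mitochondrial counts). The te2 libraries were deeper, with medians of 3427 and 4075 UMIs per kept cell, against 1204 and 1722 in the sham libraries. Pairs of libraries shared 7 kept barcodes in all. With 2 animals against 2, an exact permutation test of a single value cannot go below p = 0.333, so the p-values below rest largely on the spread that edgeR pools over genes.

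MHC class II molecules are heterodimers that carry peptides from the endosome to the cell surface for inspection by CD4 T cells. Their subunits assemble on the invariant chain, encoded by Cd74, which endosomal proteases degrade, and H2-DM then exchanges the remaining fragment for antigenic peptide. Dendritic cells, B cells and many tissue macrophages express the pathway constitutively, under the coactivator CIITA, while interferon-gamma can induce it in other cells. CIITA does not bind DNA itself but docks on a complex of RFX, CREB and NF-Y proteins at the W/S, X and Y boxes of class II promoters. Mice of the C57BL/6 background carry a defective H2-Ea gene, so H2-Eb1 has no partner chain at the surface in these animals.

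The promoters of 4 members are shown because they differ in the letters that this complex reads: 3 carry the X1 and Y boxes in the same order, 33 or 34 bases apart, and Ctss carries neither. The 150 bases before each annotated start are from RefSeq (GRCm38.p6), 5′ to 3′ on the strand of the gene. Capitals mark CTNGNAAC, as the X1 box, and TGATTGG, as the Y box, in the first 3 sequences, and GAAA, then any 2 bases, then GAAA, an interferon-response-type motif, in Ctss.
H2-Aa, chr17:34287824-34287973, minus strand: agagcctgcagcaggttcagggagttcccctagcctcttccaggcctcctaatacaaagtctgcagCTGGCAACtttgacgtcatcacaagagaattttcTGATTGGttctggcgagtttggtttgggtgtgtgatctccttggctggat
H2-Eb1, chr17:34305717-34305866, plus strand: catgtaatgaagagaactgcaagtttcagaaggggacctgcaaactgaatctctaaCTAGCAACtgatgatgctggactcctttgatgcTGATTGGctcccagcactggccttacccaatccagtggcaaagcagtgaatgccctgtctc
H2-DMb1, chr17:34153041-34153190, plus strand: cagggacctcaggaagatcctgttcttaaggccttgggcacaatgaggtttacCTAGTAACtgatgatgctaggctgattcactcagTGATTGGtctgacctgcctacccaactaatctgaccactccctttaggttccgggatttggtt
Ctss, chr3:95526636-95526785, plus strand: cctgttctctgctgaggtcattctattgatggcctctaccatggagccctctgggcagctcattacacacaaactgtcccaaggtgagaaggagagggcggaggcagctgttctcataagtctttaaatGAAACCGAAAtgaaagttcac

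H2-Aa and H2-Eb1 encode an alpha and a beta chain, H2-DMb1 the beta chain of the peptide exchange factor, and Ctss cathepsin S, the protease that trims the invariant chain in many antigen-presenting cells. The X1 and Y boxes start 34 bases apart in H2-Aa and in H2-DMb1 and 33 bases apart in H2-Eb1. Both strands of 32851 RefSeq promoter windows, running from 250 bases before to 50 bases after each start, were searched with letters chosen after these sequences had been read. The X1 letters were present in 13.2% of windows, the Y letters in 7.82% and the interferon-type letters in 3.44%. The X1 letters followed within 40 bases by the Y letters, both on the plus strand of the gene, occurred in 17 windows (0.0517%) of 15 genes, among them H2-Aa, H2-Eb1, H2-DMb1 and H2-Ob. The 3 motifs do not overlap each other in the printed sequences. Neither start of H2-DMa held any of them, and 5 of the 8 members were matched in the promoter table. A match of letters is a description of these windows and shows no binding.

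**Figure D1:**
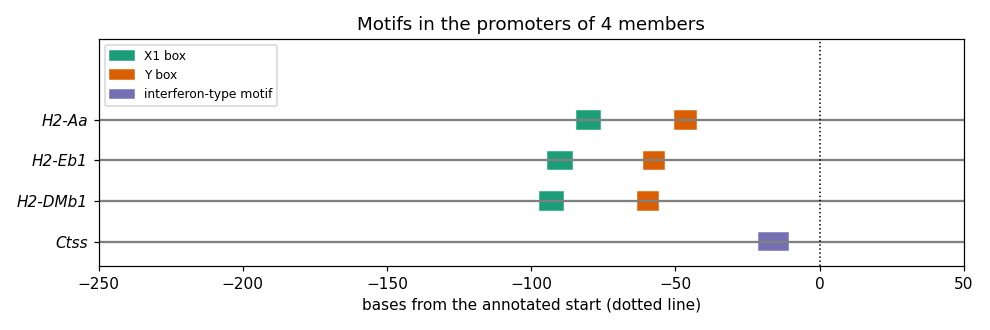
Positions of 3 motifs, in bases from the annotated start (dotted line), in the promoter windows of H2-Aa, H2-Eb1, H2-DMb1 and Ctss. The X1 box starts 84, 94 and 97 bases before the start in H2-Aa, H2-Eb1 and H2-DMb1, with the Y box behind it in each, while the motif of Ctss starts 21 bases before the start.

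Cells were sorted into sets by marker transcripts, since no annotation of the cells was used. C1q macrophages had at least 0.3% of their UMIs from C1qa, C1qb and C1qc, which encode the complement component made by tissue macrophages. Spp1/Gpnmb cells had at least 3 UMIs of Spp1 and Gpnmb, which mark lipid- and debris-laden macrophages in many injured tissues, and Retnla/Ccl6/Fn1 cells had at least 3 UMIs of those genes, expressed by many monocyte-derived cells. Luminal, basal and proximal epithelial cells were set apart by Sbp and Spink1 (10% of UMIs), by Krt5, Krt14 and Krt15 (0.2%) and by Krt4, Wfdc2 and Cxcl17 (0.1%). Sets could overlap. There were 104 and 79 C1q macrophages in the te2 libraries and 62 and 63 in the sham libraries. Their defining macrophage transcripts were present together with transcripts of all 7 pan-leukocyte genes (Ptprc, Tyrobp, Fcer1g, Laptm5, Coro1a, Cd53 and Cd37) in every library. Near-identical copies and neighbours (H2-DMb1 and H2-DMb2, H2-Eb1 and H2-Eb2) may share reads, so their split is uncertain.

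Class II transcripts were concentrated in few cells. Cd74, H2-Aa, H2-Ab1 and H2-Eb1, the core genes for the chains and the chaperone, were absent from 88.3% and 89.9% of kept te2 cells and from 83.9% and 93.0% of kept sham cells. Cells with at least 1% of their UMIs from these 4 genes numbered 109 and 97 in the te2 libraries and 121 and 65 in the sham libraries. They made up 4.69% and 4.59% of kept te2 cells (exact 95% intervals 3.87 to 5.63 and 3.74 to 5.57) and 7.39% and 3.22% of kept sham cells (6.17 to 8.76 and 2.50 to 4.09). All intervals in this text cover counting error only. The sham libraries lay on either side of the te2 libraries, so this share did not separate the groups. These few cells held 96.3% and 98.3% of the core UMIs in te2 and 94.6% and 93.7% in sham, and 107 and 90 of them in te2, and 112 and 63 in sham, also had at least 2 pan-leukocyte UMIs.

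The C1q macrophages outside the Spp1/Gpnmb set held 43.3% and 59.1% of all core UMIs in the te2 libraries and 32.1% and 54.7% in the sham libraries. Further Retnla/Ccl6/Fn1 cells held 25.0% and 16.8% in te2, against 44.7% and 28.3% in sham. Remaining cells with at least 2 UMIs of dendritic cell genes held 19.4% and 14.2% in te2, against 13.9% and 2.85% in sham. Epithelial cells, which were 69.4% and 67.8% of te2 cells and 67.2% and 80.1% of sham cells in this division, held 2.22% and 0.714% in te2, against 2.33% and 5.91% in sham. Ctss was distributed otherwise. The Spp1/Gpnmb cells held 71.4% and 44.0% of all Ctss UMIs in the te2 libraries, while in the sham libraries, which had no such cell, the C1q macrophages held 52.2% and 68.4%.

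**Figure D2:**
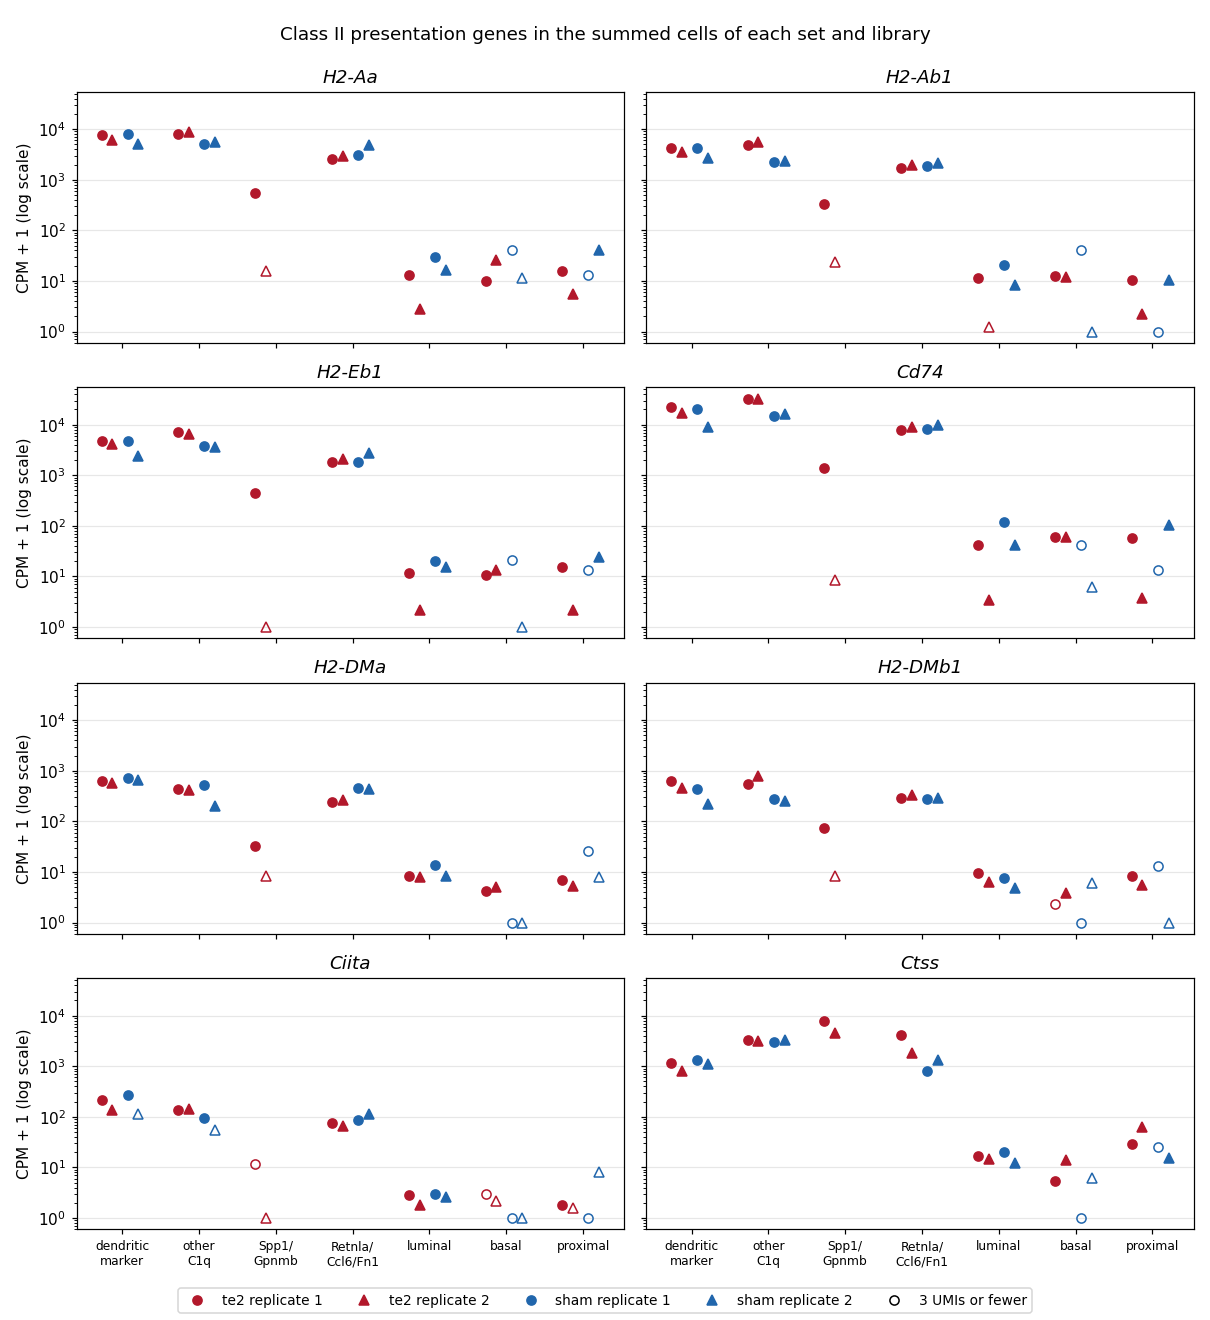
UMIs of a gene per 1000000 UMIs of the set (CPM) plus 1, on a log axis, for each of the 8 genes in the summed cells of 7 sets, one point per library, te2 in red and sham in blue, with open symbols for sums of 3 UMIs or fewer. The core genes lie orders of magnitude higher in dendritic marker, C1q and Retnla/Ccl6/Fn1 cells than in the 3 epithelial sets, and in the Spp1/Gpnmb cells, seen in te2 libraries alone, Ctss is high while the other 7 are low.

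Across all C1q macrophages, te2 against sham asks whether the macrophage population as a whole carried more or less of the pathway. None of the 8 members passed the test, although 1.39% of the 2307 genes tested were higher in te2 and 1.73% were lower. Cd74, H2-Aa and H2-Eb1 split the te2 libraries rather than the groups. Cd74 had 15447.5 and 27827.1 CPM in te2 C1q macrophages, against 14955.0 and 15946.0 CPM in sham C1q macrophages. H2-Aa, the alpha chain of I-A, had 3940.9 and 7421.3 CPM in te2 and 5078.3 and 5556.7 CPM in sham. For both genes te2 replicate 2 was the highest library, while te2 replicate 1 lay within the sham range for Cd74 and below it for H2-Aa. H2-Eb1 was alike, with 3451.7 and 5674.5 CPM in te2 and 3772.1 and 3674.3 CPM in sham. H2-Ab1 had 2383.2 and 4656.4 CPM in te2 and 2212.6 and 2298.7 CPM in sham. H2-DMb1 had 299.6 and 662.0 CPM in te2 and 279.9 and 253.4 CPM in sham. In H2-Ab1 and H2-DMb1 both te2 libraries were above both sham libraries. H2-DMa (219.7 and 356.0 CPM against 519.8 and 199.1 CPM) and Ciita (69.9 and 122.4 CPM against 93.3 and 54.3 CPM) overlapped between groups.

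The differences for Cd74 and H2-Aa were log2 0.47 ± 0.47 (SE) and 0.08 ± 0.39, with adjusted p = 0.609 and 0.950 by edgeR's quasi-likelihood test with Benjamini-Hochberg adjustment over all genes tested. Ctss went the other way between the te2 animals, with 7093.0 and 4172.4 CPM in te2 and 3012.3 and 3366.6 CPM in sham. Both te2 libraries were above both sham libraries, but the difference did not pass (0.84 ± 0.40, adjusted p = 0.254, same test). At an unadjusted p under 0.05 edgeR counted 504 of the 2307 genes and none of the 8 members, and DESeq2 called none of the members at an adjusted p of 0.05. Single te2 libraries decided calls here: without te2 replicate 1, Cd74 passed (0.80, adjusted p = 0.00303), and without te2 replicate 2, Ctss passed (1.22, adjusted p = 0.00229). In te2 replicate 1, 35 of the 104 C1q macrophages were also Spp1/Gpnmb cells, in te2 replicate 2 only 4 of 79 were, and in sham none were.

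The C1q macrophages without Spp1/Gpnmb were 69 and 75 cells in te2 and 62 and 63 cells in sham. In this set the invariant chain gene Cd74 and the beta chain gene H2-Ab1 were about 2-fold higher in te2. The rule for this set took 35 of 104 and 4 of 79 C1q macrophages out of the te2 libraries and none out of sham. The removed te2 cells had 2055.4 and 0 CPM of Cd74. Their removal moved Cd74 in te2 from 15447.5 and 27827.1 CPM to the values below, while the sham values stayed as they were. The comparison is therefore between sets trimmed in 1 group only. Of the 8 members, 2 were higher and 0 lower, beside 1.22% of 1883 genes higher and 1.17% lower, and the median log2 difference of the members was 0.79, against 0.00 over all genes tested. Cd74, the invariant chain, had 32739.3 and 32797.0 CPM in te2 and 14955.0 and 15946.0 CPM in sham. H2-Ab1, the beta chain of I-A, had 4918.9 and 5481.5 CPM in te2 and 2212.6 and 2298.7 CPM in sham. For both genes both te2 libraries were above both sham libraries, with a narrow spread within groups.

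Cd74 rose by log2 0.99 ± 0.22 (SE; 1.98-fold, adjusted p = 0.0274) and H2-Ab1 by 1.11 ± 0.24 (2.15-fold, adjusted p = 0.0214) in edgeR's quasi-likelihood test with Benjamini-Hochberg adjustment. The call for Cd74 was lost with DESeq2 (adjusted p = 0.0560) and that for H2-Ab1 without te2 replicate 2 (1.06, adjusted p = 0.105), and both held under the other alternatives run. The 4 core genes together averaged 53266.1 ± 632.2 CPM in te2 and 26746.8 ± 1030.7 CPM in sham (SD, n = 2 each).

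The other chains and the exchange factor did not pass in this set. H2-Eb1, the beta chain of I-E, had 7145.7 and 6687.9 CPM in te2 and 3772.1 and 3674.3 CPM in sham (log2 0.79 ± 0.23, adjusted p = 0.0853, same test). H2-DMb1 had 556.7 and 780.3 CPM in te2 and 279.9 and 253.4 CPM in sham (1.22 ± 0.33, adjusted p = 0.0545). H2-Aa had 8015.1 and 8746.7 CPM in te2, against 5078.3 and 5556.7 CPM in sham (0.56 ± 0.23, adjusted p = 0.226). In each of these 3 genes both te2 libraries were above both sham libraries, and none of the 3 passed the threshold. H2-DMb1 passed under 5 of its 12 alternatives (doublets left out, C1q of at least 1%, library totals, no filter on low counts and the replicate block), with changes of 1.19 to 2.41, and H2-Aa and H2-Eb1 under 1 each, without the filter (0.85 and 1.08).

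H2-DMa, the alpha chain of the exchange factor, had 442.3 and 419.6 CPM in te2 and 519.8 and 199.1 CPM in sham, so the te2 values lay between the sham values (0.11 ± 0.36, adjusted p = 0.909). Ciita, which encodes the coactivator, was near the limit of counting, with 18 and 22 UMIs in te2 (137.3 and 144.2 CPM) and 7 and 3 UMIs in sham (93.3 and 54.3 CPM). Its difference of 0.78 ± 0.53 did not pass (adjusted p = 0.469). Ctss had 3279.3 and 3121.0 CPM in te2 and 3012.3 and 3366.6 CPM in sham, and the groups overlapped (−0.09 ± 0.24, adjusted p = 0.886).

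The subunit genes did not change in proportion. H2-Ab1 had 0.614 and 0.627 UMIs per UMI of H2-Aa in these te2 cells, against 0.436 and 0.414 in the sham cells, and Cd74 had 4.08 and 3.75 UMIs per UMI of H2-Aa in te2, against 2.94 and 2.87 in sham. The order was not particular to this set: H2-Ab1 per UMI of H2-Aa was also higher in te2 in Retnla/Ccl6/Fn1 cells, some of which are shared. There H2-Ab1 had 982 and 756 UMIs beside 1501 and 1141 of H2-Aa in te2. In sham it had 453 and 151 UMIs beside 765 and 338. These ratios compare libraries, not the amounts of the chains, since counts of 3′ ends differ in efficiency between genes. In single cells, the median share of UMIs from the 4 core genes was 5.63% and 5.16% in te2 and 2.17% and 2.36% in sham. That of Ctss was 0.208% and 0.232% in te2 and 0.228% and 0.323% in sham. Most of these macrophages had class II transcripts in both groups: after thinning each cell to 500 UMIs, Cd74 was seen in 94.2% and 96.0% of te2 cells and in 95.2% and 85.7% of sham cells.

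Other features moved with the group in these cells. Depth was a median of 1582 and 1846 UMIs in te2 and 874 and 738 in sham, and its part in the result was not tested. The calls of Cd74 and H2-Ab1 held when each cell was thinned to 500 UMIs. Thinning evens the weight of cells but leaves the expected share of a gene in each cell unchanged, so it cannot decide that question. Transcripts of the luminal list (Sbp, Spink1, Krt8 and Krt18) summed to 3004.7 and 7297.7 CPM in te2 and 44905.0 and 53738.5 CPM in sham, and their part in the result was not tested. The pan-leukocyte list stood at 7755.8 and 9028.7 CPM in te2 and 7304.2 and 8000.1 CPM in sham. Per pan-leukocyte UMI there were 6.81 and 5.95 core UMIs in te2 and 3.56 and 3.43 in sham, and the groups did not overlap on that scale either. The dendritic cell list summed to 297.4 and 281.9 CPM in te2 and 493.2 and 362.0 CPM in sham, with Zbtb46, Clec9a, Ccr7 and Fscn1 at 0 in all 4 libraries, and the B cell list to 388.9 and 373.7 CPM in te2 and 306.6 and 506.8 CPM in sham.

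**Figure D3:**
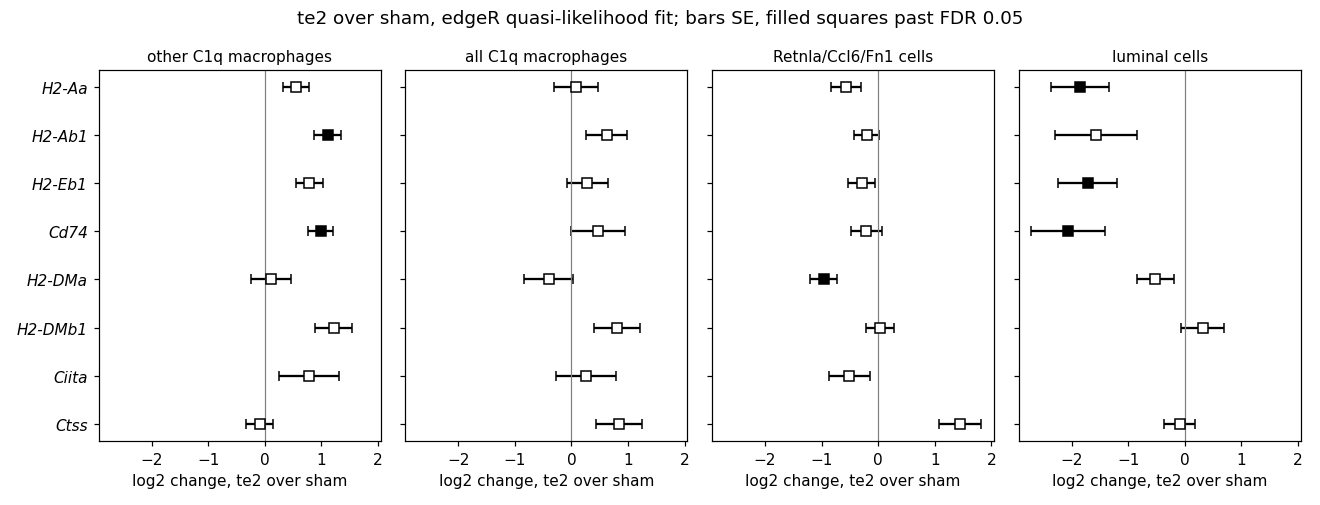
Log2 change of each gene, te2 over sham, in 4 cell sets, with its standard error and filled squares for genes past an adjusted p of 0.05 in edgeR's quasi-likelihood test (n = 2 libraries a group). Cd74 (0.99) and H2-Ab1 (1.11) passed in the C1q macrophages outside the Spp1/Gpnmb set, none passed in all C1q macrophages, H2-DMa (−0.96) passed in Retnla/Ccl6/Fn1 cells, and H2-Aa, H2-Eb1 and Cd74 passed below 0 in luminal cells, where Ciita was too low to test.

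The Spp1/Gpnmb cells were a set of the te2 libraries: 50 and 16 cells in te2 (2.15% and 0.758% of kept cells), against 0 of 1638 and 0 of 2017 in sham, which allow shares of up to 0.225% and 0.183% (exact 95% limits). Both sham libraries held Spp1 or Gpnmb UMIs, 16 and 7, with at most 2 in a cell. The te2 cells were deep, with medians of 4726 and 8225 UMIs, and their pan-leukocyte list summed to 8883.0 and 5403.1 CPM. In te2 replicate 2 they also carried 30625.0 CPM of the luminal list and 1711.0 CPM of the fibroblast list, against 5033.1 and 38.9 CPM in te2 replicate 1. Only 35 of the 50 and 4 of the 16 cells also met the C1q rule, so the set was not one of C1q macrophages alone. In te2 replicate 2, 3 cells had exactly 3 UMIs of Spp1 and Gpnmb, and these had no pan-leukocyte and no Ctss UMI. Below, the other C1q macrophages are those outside this set.

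Class II transcripts were scarce in the Spp1/Gpnmb cells, and Ctss was not. Cd74 had 1405.7 and 7.5 CPM in the Spp1/Gpnmb cells of the te2 libraries, against 32739.3 and 32797.0 CPM in the other C1q macrophages of the same animals. H2-Aa had 536.9 and 15.0 CPM, against 8015.1 and 8746.7 CPM, and H2-Ab1 had 332.0 and 22.5 CPM, against 4918.9 and 5481.5 CPM. Both animals showed the same direction for each gene, with far lower values in te2 replicate 2.

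H2-Eb1 had 448.6 and 0 CPM in the Spp1/Gpnmb cells, against 7145.7 and 6687.9 CPM in the other C1q macrophages. H2-DMa had 31.8 and 7.5 CPM, against 442.3 and 419.6 CPM, H2-DMb1 had 74.2 and 7.5 CPM, against 556.7 and 780.3 CPM, and Ciita had 10.6 and 0 CPM, against 137.3 and 144.2 CPM. In te2 replicate 2 the 7 genes rested on 0 to 3 UMIs each. Ctss alone was above the other C1q macrophages in both animals, with 7961.1 and 4540.1 CPM against 3279.3 and 3121.0 CPM, a ratio of 2.43 (exact 95% interval 2.19 to 2.70) and 1.45 (1.29 to 1.64).

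In a fit over the te2 libraries with the animal as a block, 7 of the 8 members were lower in Spp1/Gpnmb cells and 0 higher, beside 7.72% of 2578 genes lower and 6.48% higher. The changes were log2 −6.85 ± 1.31 for Cd74 (SE; adjusted p = 0.00447), −5.57 ± 0.93 for H2-Eb1 (0.00203), −5.52 ± 0.88 for H2-Aa (0.00149) and −5.16 ± 0.70 for H2-Ab1 (0.000490) in edgeR's quasi-likelihood test with Benjamini-Hochberg adjustment. Those of H2-DMa, Ciita and H2-DMb1 were −4.22 ± 0.52, −4.17 ± 0.73 and −3.80 ± 0.56, with adjusted p = 0.000251, 0.00267 and 0.000890. Ctss differed by 0.95 ± 0.40 and did not pass (adjusted p = 0.140). The fit has 4 sums and 1 residual degree of freedom, 1 of the sums has only 16 cells, and fitted folds of genes at 0 to 3 UMIs depend on the prior count. With library totals in place of TMM factors, 1 of the 7 members still passed. Cd74 and H2-Eb1 each lost their call under 2 of 8 alternatives, library totals among them.

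The sum for te2 replicate 1 was carried by 3 cells. Of the 50 cells there, 34 had no core UMI, and 3 cells with 113, 266 and 311 core UMIs held 690 of the 771. In that order, these cells had 47, 10 and 3 UMIs of Spp1 and Gpnmb, where 3 is the least the rule allows. The median of that library was 44. Without these 3 cells the core genes had 308.8 CPM, against 52819.0 CPM in the other C1q macrophages of that library. In te2 replicate 2, 12 of 16 cells had none and the rest had 6 in all. Ctss by contrast was seen in 49 of 50 and 13 of 16 cells, at medians of 39.5 and 34.5 UMIs. The 35 cells of te2 replicate 1 that met both the C1q and the Spp1/Gpnmb rule had 2055.4 CPM of Cd74 and 10046.7 CPM of Ctss. The 4 such cells of te2 replicate 2 had 0 CPM of Cd74 and 10059.1 CPM of Ctss.

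**Figure D4:**
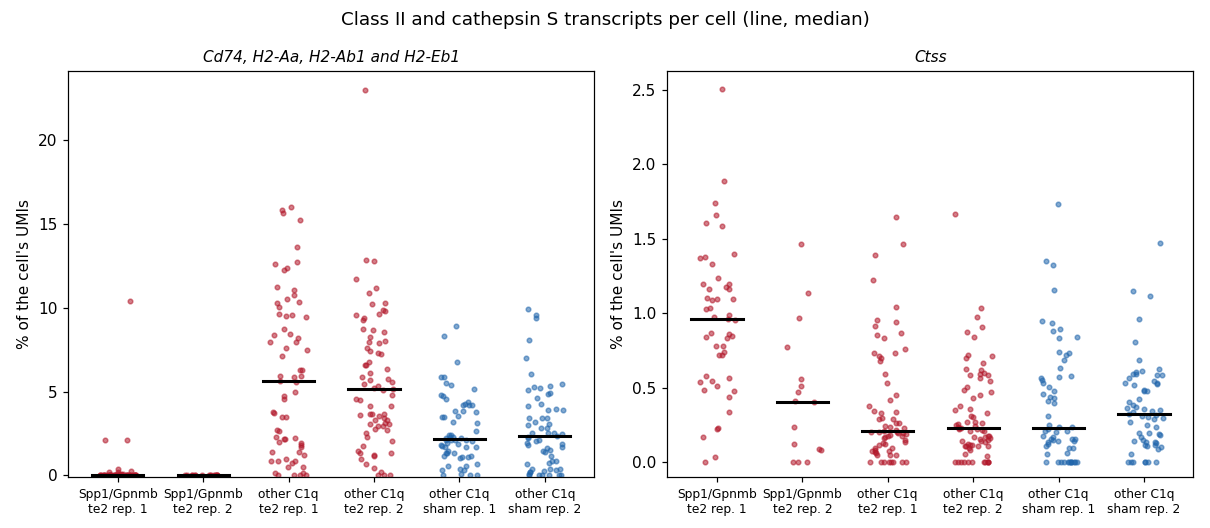
Share of each cell's UMIs, in percent, from the 4 core class II genes (left) and from Ctss (right) in Spp1/Gpnmb cells and in other C1q macrophages, one point per cell and a line at the median of each library. The core medians are 0 in both Spp1/Gpnmb columns, 5.63 and 5.16 in the other te2 macrophages and 2.17 and 2.36 in the sham macrophages, while the Ctss median is highest (0.959) in the Spp1/Gpnmb cells of te2 replicate 1.

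In Retnla/Ccl6/Fn1 cells, 143 and 88 in te2 and 133 and 35 in sham, none of the 4 core genes passed the test, and H2-DMa was lower in te2. Of the 8 members, 1 was lower and 0 higher, beside 1.35% of 5264 genes lower and 2.03% higher. H2-DMa had 237.8 and 260.6 CPM in te2 and 453.0 and 441.5 CPM in sham. The groups did not overlap, and the change of −0.96 ± 0.24 (SE) passed narrowly in edgeR's quasi-likelihood test with Benjamini-Hochberg adjustment (adjusted p = 0.0468). The call was lost under each of the 12 alternatives run, with adjusted p between 0.0537 and 0.576.

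Cd74 in these cells had 7763.4 and 9127.8 CPM in te2 and 8263.0 and 10041.4 CPM in sham (−0.21 ± 0.27, adjusted p = 0.759, same test). H2-Aa had 2605.1 and 3003.1 CPM in te2 and 3094.1 and 4814.2 CPM in sham (−0.57 ± 0.26, adjusted p = 0.267), while H2-Ab1, H2-Eb1, H2-DMb1 and Ciita lay between −0.51 and 0.03 on the log2 scale with overlapping groups or adjusted p of 0.50 and above. Ctss had 4141.2 and 1826.6 CPM in te2 and 796.8 and 1353.1 CPM in sham. Both te2 libraries were above both sham libraries, and the difference of 1.45 ± 0.37 just missed the threshold (adjusted p = 0.0560). It passed with DESeq2 (1.42, adjusted p = 0.0152) and without te2 replicate 2 (2.0, adjusted p = 1.49e-12).

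Of the Retnla/Ccl6/Fn1 cells, 50 were also Spp1/Gpnmb cells, all of them in the te2 libraries, and 146 also met the C1q rule. The te2 sums above therefore include Spp1/Gpnmb cells and the sham sums do not, and their part in the Ctss and H2-DMa differences was not tested. Outside the C1q rule, Ctss had 1819.4 and 1448.3 CPM in te2 and 720.4 and 1162.6 CPM in sham. H2-DMa had 282.7 and 216.5 CPM in te2 and 420.2 and 484.4 CPM in sham. Both kept their order there, but the te2 sums still held Spp1/Gpnmb cells and the sham sums did not. Outside both rules, Ctss had 223 and 102 UMIs in 63 and 45 te2 cells and 144 and 60 UMIs in 106 and 21 sham cells. H2-DMa had 91 and 60 UMIs in te2 and 84 and 25 UMIs in sham. Whether either order holds in those cells was not tested. The B cell list summed to 72.9 and 76.3 CPM in te2 and to 2394.4 and 227.9 CPM in sham, and the luminal list to 9575.3 and 10793.9 CPM in te2 and 83260.5 and 52201.3 CPM in sham. The part of either in the result was not tested.

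Cells with at least 2 UMIs of dendritic cell genes were few, 33 and 28 in te2 and 27 and 8 in sham, so no test was made. Dendritic cells are the main carriers of the pathway to lymph nodes, and the core genes were seen there in all 4 libraries. Cd74 had 22258.8 and 17021.8 CPM in te2 and 20368.7 and 9102.1 CPM in sham, and H2-Aa had 7506.0 and 6147.0 CPM in te2 and 8021.1 and 5025.7 CPM in sham. In both genes the 8 cells of sham replicate 2 were lowest and sham replicate 1 was within or near the te2 range. Ciita had 219.2 and 136.6 CPM in te2 and 268.0 and 111.7 CPM in sham, and Ctss had 1169.1 and 819.6 CPM in te2 and 1359.2 and 1116.8 CPM in sham.

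In luminal cells, 392 and 485 in te2 and 1057 and 1292 in sham, the core genes were low throughout, and Cd74, H2-Aa and H2-Eb1 were lower in te2 by a test that did not hold under all alternatives. Of the 7 members tested, 3 were lower and 0 higher, beside 14.1% of 10976 genes lower and 18.0% higher, so a luminal call of this kind was common. Cd74 had 40.6 and 2.43 CPM in te2 and 115.7 and 40.5 CPM in sham, with te2 replicate 1 level with sham replicate 2. H2-Aa had 12.3 and 1.82 CPM in te2 and 29.3 and 15.4 CPM in sham, and H2-Eb1 had 10.5 and 1.21 CPM in te2 and 19.2 and 14.1 CPM in sham, without overlap in either.

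The luminal changes were −2.06 ± 0.65 for Cd74 (SE; adjusted p = 0.0255), −1.85 ± 0.51 for H2-Aa (0.0129) and −1.72 ± 0.52 for H2-Eb1 (0.0215) in edgeR's quasi-likelihood test with Benjamini-Hochberg adjustment. H2-Ab1 had 10.2 and 0.202 CPM in te2 and 19.2 and 7.32 CPM in sham and did not pass (−1.57 ± 0.73, adjusted p = 0.117), with te2 replicate 1 above sham replicate 2. It passed under 5 of its 10 alternatives: without doublets, without the filter, with the replicate block, without te2 replicate 1 and without sham replicate 2 (−1.52 to −5.80). With the called doublets left out, the changes of Cd74, H2-Aa and H2-Eb1 were −4.48, −3.95 and −4.09. H2-DMa, H2-DMb1 and Ctss had 5.46 to 15.6 CPM in te2 and 3.92 to 19.2 CPM in sham, none passed, and Ciita was too low to test. Few cells carried the core counts: 1 and 0 luminal cells in te2 and 12 and 6 in sham had at least 1% of their UMIs from the core genes, and they held 58.4% and 0% of the luminal core UMIs in te2 and 62.0% and 75.3% in sham. Without sham replicate 1 the call of Cd74 was lost (-1.11, adjusted p = 0.0631), and without te2 replicate 2 that of H2-Eb1 (-0.74, adjusted p = 0.0892). All 3 calls were lost with DESeq2 and in luminal cells that met no other set's rule, where Ctss instead was higher in te2 (1.39, adjusted p = 0.00706, and 1.44, adjusted p = 0.00317, in luminal cells with no pan-leukocyte UMI).

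The pan-leukocyte list summed to 22.5 and 9.3 CPM in te2 luminal cells and to 47.1 and 29.5 CPM in sham luminal cells, and so was lowest in te2 replicate 2, as the core genes were. In luminal cells with no pan-leukocyte UMI, Cd74 had 5.30 and 2.09 CPM in te2 and 32.1 and 6.11 CPM in sham. H2-DMa in those cells had 5.92 and 6.90 CPM in te2 and 9.53 and 6.38 CPM in sham, and Ctss had 12.5 and 9.62 CPM in te2 and 5.29 and 2.66 CPM in sham. In te2 replicate 2 there were 2.92 UMIs of H2-DMa per UMI of Cd74 in luminal cells, on 35 and 12 UMIs. This ratio was 0.178 in te2 replicate 1 and 0.110 and 0.181 in sham, so te2 replicate 2 alone stood apart. The source of these counts was not tested.

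Basal and proximal cells carried few counts. In basal cells Cd74 was the 1 of 4 tested members that passed, higher in te2 (5.45% of 9196 genes were higher and 3.38% lower), with 58.0 and 58.5 CPM in te2 and 40.8 and 5.15 CPM in sham, on 90 and 101 UMIs in te2 and 2 and 1 UMIs in sham. Its change was 2.22 ± 0.69 (adjusted p = 0.0278) in edgeR's quasi-likelihood test with Benjamini-Hochberg adjustment, and without sham replicate 2 it was 0.83 (adjusted p = 0.672), with the call also lost without either te2 library (2.17, adjusted p = 0.138 and 0.164). In proximal cells H2-Aa was the 1 of 7 tested members that passed, lower in te2 (4.19% of 10434 genes were lower and 5.18% higher), with 14.4 and 4.48 CPM in te2 and 12.4 and 39.9 CPM in sham, on 69 and 15 UMIs in te2 and 1 and 17 UMIs in sham. The groups overlapped, the change was −1.77 ± 0.57 (adjusted p = 0.0466, same test), and without sham replicate 2 it was −0.03 (adjusted p = 0.998), with the call lost without any one of the 4 libraries. Cd74 in proximal cells had 56.8 and 2.69 CPM in te2 and 12.4 and 103.1 CPM in sham, and Ctss 27.8 and 63.0 CPM in te2 and 24.8 and 14.1 CPM in sham, with neither past the threshold. In proximal cells that met no other set's rule, Ctss had 16.4 and 16.6 CPM in te2 and 27.1 and 12.9 CPM in sham. The groups overlapped there, and the sham values rested on 2 and 5 UMIs.

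Whether macrophages and epithelial cells differed in their response was tested as a set by treatment term, with the library as a block. Against luminal cells, 4 of the 8 members had a more positive te2 change in C1q macrophages and 0 a more negative one, beside 0.798% of 11030 genes more positive and 0.172% more negative. The differences of log2 changes were 2.65 ± 0.43 for Cd74 (SE; adjusted p = 4.06e-07), 2.30 ± 0.42 for H2-Ab1 (2.45e-05), 2.09 ± 0.41 for H2-Eb1 (0.000164) and 1.92 ± 0.40 for H2-Aa (0.000637) in edgeR's quasi-likelihood test with Benjamini-Hochberg adjustment. H2-DMa, H2-DMb1, Ciita and Ctss differed by 0.54 to 1.23 and did not pass. These differences rested on te2 replicate 2: without it the 4 values were 0.54 to 0.85 and none passed. Without sham replicate 1, H2-Eb1 alone passed, and with DESeq2 none did.

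Against proximal cells, 3 of the 8 members had a more positive change in C1q macrophages and 0 a more negative one, beside 0.607% of 5604 genes more positive and 0.393% more negative. They were Cd74 (3.32 ± 0.70, adjusted p = 0.00638), H2-Eb1 (3.00 ± 0.71, 0.0236) and H2-Aa (2.79 ± 0.54, 0.00273), by the same test. None of the 3 passed with DESeq2, without te2 replicate 2, without sham replicate 2, or in cells with no pan-leukocyte UMI. Against basal cells none of the 8 members passed, beside 0.451% of 5096 genes more positive and 0.373% more negative. The lowest unadjusted edgeR p among the members there was 0.103, so 0 had one under 0.05, and DESeq2 called 0 of them.

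Of 36 other genes of the class II pathway (proteases, accessory chains, costimulators, promoter-binding factors and interferon-gamma signalling), 34 were in the tables. In all C1q macrophages 16 were tested, and 3 were higher and 0 lower in te2, beside 1.39% and 1.73% of all genes tested. Their median log2 difference was 0.91, against 0.03 over all genes. All 3 were lysosomal proteases. Ctsl, cathepsin L, which trims the invariant chain in thymic epithelium, had 3761.2 and 5613.3 CPM in te2 and 226.6 and 108.6 CPM in sham (4.74 ± 0.46, adjusted p = 0.00133, edgeR's quasi-likelihood test with Benjamini-Hochberg adjustment). Ctsd, cathepsin D, had 2982.3 and 2186.3 CPM in te2 and 559.8 and 398.2 CPM in sham (2.43 ± 0.37, adjusted p = 0.00842), and Ctsb, cathepsin B, had 5784.9 and 3616.1 CPM in te2 and 1026.3 and 1049.8 CPM in sham (2.19 ± 0.39, adjusted p = 0.0160). In C1q macrophages at or above 1% C1q, Ctsd did not pass (0.90, adjusted p = 0.351).

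These proteases were high in the Spp1/Gpnmb cells. Ctsl had 5679.5 and 15841.6 CPM in the Spp1/Gpnmb cells of the te2 libraries, against 419.4 and 445.9 CPM in the other C1q macrophages of te2. Among those other C1q macrophages 13 pathway genes were tested between te2 and sham with edgeR and 0 passed, 5 having an unadjusted p under 0.05, with Ctsl at 1.21 (adjusted p = 0.0888) and Ctsd at −0.03 (adjusted p = 0.967). In the fit of Spp1/Gpnmb cells against other C1q macrophages, 5 of 15 pathway genes were higher, beside 6.48% of all genes (Ctsl 4.50, Ctsd 3.43, Ctsb 1.81, Mif 1.65 and Ctsz 0.96) and 1 lower, beside 7.72% (Ifngr1, −1.37, a chain of the interferon-gamma receptor). In Retnla/Ccl6/Fn1 cells 5 of 21 were higher (Ctsl, Ctsd, Ctsb, Ctsz and Lgmn) and 2 lower (Cd44 and H2-DMb2), beside 2.03% and 1.35% of all genes. The H2-DMb2 levels were 31.2 and 31.6 CPM in te2 and 141.6 and 170.9 CPM in sham (−2.36 ± 0.36, adjusted p = 0.00384), without overlap.

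In the epithelial sets, 8 of 25 pathway genes tested were higher and 0 lower in luminal te2 cells, beside 18.0% and 14.1% of all genes. In basal cells 2 of 22 were higher and 0 lower, beside 5.45% and 3.38%, and in proximal cells 1 of 24 was higher and 1 lower, beside 5.18% and 4.19%, counts near those over all genes. The luminal 8 were Jak1, Cst3, Lgmn, Ctsl, Ifi30, Mif, Ctsd and Ctsb, with changes of 0.42 to 1.53, and none of them encodes a class II chain or a factor that binds the class II promoter.

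Of 18 macrophage and monocyte state genes, 15 were tested in all C1q macrophages, with 2 higher and 1 lower in te2, beside 1.39% and 1.73% of all genes. Trem2, a lipid receptor, had 1135.0 and 489.6 CPM in te2 and 53.3 and 18.1 CPM in sham (4.42 ± 0.66, adjusted p = 0.00842), and Cd9, a tetraspanin, had 436.0 and 283.7 CPM in te2 and 40.0 and 36.2 CPM in sham (3.23 ± 0.53, adjusted p = 0.0112), by the same test. Cx3cr1, the fractalkine receptor, had 106.5 and 217.0 CPM in te2 and 506.5 and 1411.8 CPM in sham (−2.58 ± 0.49, adjusted p = 0.0249). In the C1q macrophages without Spp1/Gpnmb, where Cd74 and H2-Ab1 were higher, 4 of 14 were higher (Apoe, Mrc1, F13a1 and Cd9) and 1 lower (Cx3cr1), beside 1.22% and 1.17% of all genes. Between Spp1/Gpnmb cells and those macrophages, 2 of 15 were higher (Trem2 and Cd9) and 8 lower (F13a1, Ccr2, Folr2, Mrc1, Lyve1, Cd163, Cx3cr1 and Csf1r), beside 6.48% and 7.72%. In Retnla/Ccl6/Fn1 cells 3 of 15 were higher and 1 lower, beside 2.03% and 1.35%, and in luminal cells 1 of 8 was higher and 4 lower, beside 18.0% and 14.1%. In basal cells 1 of 5 was higher and 0 lower, beside 5.45% and 3.38%, and in proximal cells 2 of 9 were higher and 1 lower, beside 5.18% and 4.19%.

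Over 22 sums of disjoint sets and libraries, the genes whose log2(CPM + 1) went most closely with the mean of the 4 core genes, among 9576 genes, were Plbd1 (Pearson's r = 0.963), Susd3 (0.947), Hmgb1-ps8 (0.941), Coro1a (0.940), Mef2c (0.940), Runx3 (0.939), Cbfa2t3 (0.935), Abca9 (0.935), Batf3 (0.934) and Arhgap45 (0.932). Of the other members, Ciita reached 0.951, H2-DMb1 0.873, H2-DMa 0.860 and Ctss 0.736. The sums share libraries and depth and are mostly a contrast of myeloid with epithelial cells, so these values are a description only.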

How the data were processed

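Raw UMI counts per gene and cell, as deposited, were used for the 4 libraries. Per the submitters' processing notes, the authors' tools were bustools 0.39.4, kallisto 0.46.1, Seurat 5.0.1 and R 4.3.2, with GRCm39 as the build, and the notes do not say what each one did. In the files, no listed gene occurs in fewer than 3 cells of its library, and 0 was entered where a library does not list a gene.

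Cells with at least 500 UMIs and at most 20% mitochondrial counts were kept, 8091 of 11245. Deposited totals were 12259610 and 13134017 UMIs in te2 and 3999690 and 5513275 in sham. Doublets called by scrublet (scanpy 1.11.5; 97 cells, 1.20%) stayed in, and leaving them out is an alternative. Counts were summed per cell set and library (at least 20 cells in each), and te2 was compared with sham by edgeR 4.0.16 (quasi-likelihood test, TMM, filterByExpr, two-sided, Benjamini-Hochberg over all genes tested, threshold 0.05), with DESeq2 1.42.0, library totals alone, no filter, other cell rules, thinning to 500 UMIs and each library left out as alternatives. The script was tested on simulated data.

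The sham libraries had no Spp1/Gpnmb cell, so the planned te2 against sham test of that set could not be made, and the planned fit of 8 sums over 4 libraries became 4 sums over the te2 libraries, 1 of them with 16 cells, under the minimum of 20. The members, gene lists and tests were chosen with earlier results of these data known, and the dendritic cell marker rule and the promoter motifs after the data were seen. All members are described. Of the other lists, the genes past the threshold in C1q macrophages were to be named (at most 12 a list). The genes of other sets named here were added because the counts were small. CPM are shares of the summed UMIs of a set and carry no length term, so genes are compared between libraries and not with each other. UMI counts limit precision, and exact (Clopper-Pearson) 95% intervals cover counting error only.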

Additional observations from a re-analysis of the deposited data

Results flagged for a closer look

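The te2 minus sham change differed between C1q macrophages and epithelial cells, by the test of that difference (edgeR's quasi-likelihood test with Benjamini-Hochberg adjustment), for 4 genes against luminal and 3 against proximal cells. Against luminal cells the difference of log2 changes was 2.65 for Cd74, 2.30 for H2-Ab1, 2.09 for H2-Eb1 and 1.92 for H2-Aa. Against proximal cells it was 3.32 for Cd74, 3.00 for H2-Eb1 and 2.79 for H2-Aa. Without te2 replicate 2 the differences against luminal cells were 0.54 to 0.85 and those against proximal cells 1.78 to 2.13, none past the threshold, and with DESeq2 none passed either. In all C1q macrophages, the set used in this test, none of these genes passed between te2 and sham. Cd74 (0.99) and H2-Ab1 (1.11) passed in those without Spp1/Gpnmb, a rule that removed cells from the te2 libraries alone. The luminal cells had 245 and 28 core UMIs in the te2 libraries and 545 and 296 in the sham libraries. The pan-leukocyte list in luminal cells had the same order, with 22.5 and 9.3 CPM in te2 and 47.1 and 29.5 CPM in sham, and its part in the differences was not tested.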

How the results depend on the processing

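Counts of members called moved with the following alternatives. In all C1q macrophages 1 member passed at C1q of at least 1% and 1 without the filter, against 0. In the other C1q macrophages 1 passed with DESeq2 and 5 without the filter, against 2. In Retnla/Ccl6/Fn1 cells 0 passed in cells of 1 kind, without doublets, thinned or with the replicate block, against 1. Any member called under the other alternatives there was not H2-DMa, whose call was lost under all 12. In luminal cells 1 passed in cells of 1 kind and 0 with DESeq2, against 3. In basal cells 0 passed in cells of 1 kind, thinned, without pan-leukocyte UMIs, with DESeq2 or with the block, against 1. In proximal cells 0 passed thinned, without pan-leukocyte UMIs or with DESeq2, and 3 without the filter and 3 with the block, against 1. Of the differences against luminal cells 2 passed in cells of 1 kind, 2 thinned and 0 with DESeq2, against 4, and against proximal cells 1 in cells of 1 kind and 0 thinned, at C1q of at least 1%, without pan-leukocyte UMIs or with DESeq2, against 3. Of the members lower in Spp1/Gpnmb cells 1 passed with library totals alone, against 7.

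Leaving out each library in turn gave 0 to 1 members called in all C1q macrophages, 1 to 2 in the other C1q macrophages, 0 to 1 in Retnla/Ccl6/Fn1 and in basal cells, 2 to 4 in luminal and 0 to 2 in proximal cells, and 0 to 4, 0 to 3 and 0 to 0 differences against luminal, proximal and basal cells. Here a lone library is assumed to vary like the other group. Genes called then ranged over 59 to 163, 20 to 95, 30 to 260, 2498 to 3235, 232 to 823 and 25 to 598 in all C1q, other C1q, Retnla/Ccl6/Fn1, luminal, basal and proximal cells. Genes called thinned to 500 UMIs were 37, 17, 31, 725, 329 and 178, and with DESeq2 40, 19, 90, 1853, 164 and 280, in that order of sets. Without the filter they were 199, 95 and 332 in the first 3 sets, in cells of 1 kind 23 in other C1q and 99 in Retnla/Ccl6/Fn1 cells, and at C1q of at least 1% 79 in other C1q macrophages.

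Log2 changes turned as follows, in genes that had not passed except H2-Eb1 against proximal cells; ranges are over the left-out libraries. In all C1q macrophages H2-Aa was -0.02 in cells of 1 kind (-0.36 to 0.44), H2-DMa 0.12 at C1q of at least 1% (-0.84 to 0.59), and H2-Eb1 ranged from -0.04 to 0.56. In the other C1q macrophages H2-DMa was -0.05 thinned (-0.33 to 1.06), and Ctss 0.20 without the filter (-0.12 to 0.03). In thinned Retnla/Ccl6/Fn1 cells H2-Ab1 was 0.48, H2-Eb1 0.34 and Cd74 0.45. In luminal cells H2-DMb1 ranged from -0.06 to 0.75, and Ctss was 1.39 in cells of 1 kind and 1.44 without pan-leukocyte UMIs (-0.46 to 0.35). In proximal cells Cd74 was 0.14 thinned (-4.83 to 1.66), and the thinned difference of H2-Eb1 against proximal cells was -1.50. The cause of these moves was not tested. Thinning to 500 UMIs left few genes to test, 509 in the other C1q macrophages.

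With the replicate number as a block, 162, 70, 97, 497 and 614 genes were called in all C1q, other C1q, Retnla/Ccl6/Fn1, basal and proximal cells, and H2-DMb1 passed in the other C1q macrophages (1.19, adjusted p = 0.0429). Deviations of same-numbered libraries correlated at -0.0386 to 0.0169 over the sets, with 2 pairs, so the numbers are not taken to pair the animals. The block could not be added to differences between sets, whose library block contains it. The luminal difference at C1q of at least 1% was not run, since 1 library had 19 cells.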
